A study of Mus musculus with 12 samples.

Results

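The genes examined here are Trp53, which encodes the transcription factor p53, and 9 genes that p53 is known to switch on: Mdm2, Ccng1, Phlda3, Zmat3, Eda2r, Trp53inp1, Ddit4l, Sesn1 and Rrm2b. They were chosen by symbol, and all 10 had a row among the 24421 gene rows of the count table and were among the 15281 genes tested. Polyadenylated RNA was sequenced from E14 mouse embryonic stem cells grown on gelatin for 2 weeks in medium with serum and LIF. The 4 groups, with 3 libraries each, were Mettl3-KO cells paused with 200 nM INK128 (KO paused), Mettl3-KO cells without the drug (KO FBS), WT cells paused in the same way (WT paused) and WT cells without the drug (WT FBS). Mettl3 encodes the methyltransferase that writes N6-methyladenosine into messenger RNA, and INK128 inhibits the kinase mTOR, which drives growth and protein synthesis. The labels do not say how many clones the knockout line stands for, nor whether replicates came from separate cultures, so p-values measure the spread between these libraries, which may be technical.

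p53 is made continuously and is normally kept scarce by Mdm2, a ubiquitin ligase that marks it for destruction and that p53 itself induces, so that the pair forms a feedback loop. When DNA damage or other stress stabilises p53, its targets halt the cell cycle, repair DNA, restrain growth signalling or start cell death. Pluripotent stem cells carry abundant p53, and p53 restrains the growth of mouse embryonic stem cells in culture. Control of p53 acts largely on the protein, which was not measured here.

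p53 binds DNA as a tetramer on pairs of a degenerate half-site of 10 bases. RefSeq promoters (GRCm38.p6, 250 bases before to 50 after each start) were at hand for 7 of the 10 genes, 8 promoters in all because Sesn1 has a pair of starts, and both strands were searched for exact half-sites. At least 1 half-site stood in 5 of the 8 promoters (62.5%), against 2745 of all 32851 promoters (8.356%) and 12 of 50 promoters (24.0%) of the other p53 target genes described further on. A looser search took pairs with a spacer of at most 13 bases in which each element kept the central C, a pair of A or T, and G, and departed from the half-site at no more than 1 other base. Such a pair was in 0 of the 8, against 1.385% of all promoters. The 5 windows are shown because they carry these matches, and the promoter of Cdkn1a, the best known p53 target, is shown beside them as an example of such a pair with no spacer. Capitals mark the exact half-sites and, in Cdkn1a, the pair, whose first element is exact and whose second departs at 1 base, and each match is a resemblance of letters only.
Trp53, chr11:69580264-69580313, + strand: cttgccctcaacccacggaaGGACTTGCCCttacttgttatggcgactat
Mdm2, chr10:117710915-117710964, - strand: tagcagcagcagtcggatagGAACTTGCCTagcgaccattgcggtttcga
Ccng1, chr11:40755442-40755491, - strand: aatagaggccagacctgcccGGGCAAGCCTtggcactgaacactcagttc
Ddit4l, chr3:137623562-137623611, + strand: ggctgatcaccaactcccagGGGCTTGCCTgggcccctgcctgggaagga
Sesn1, chr10:41887246-41887295, + strand: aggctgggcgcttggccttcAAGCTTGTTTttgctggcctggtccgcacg
Cdkn1a, chr17:29090908-29090967, + strand: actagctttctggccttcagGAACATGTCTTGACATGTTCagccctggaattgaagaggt
The half-site of Trp53 began 75 bases before its start, that of Ddit4l 90, that of Ccng1 185, that of Mdm2 186 and that of Sesn1 173 before the second start. No match was found in the windows of Phlda3, Eda2r and the first start of Sesn1.

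Levels are given as CPM, read counts scaled to a common library size with TMM factors, which set each gene against the typical gene (the relative scale). A second scale divided counts by those of the ERCC spike-ins, synthetic RNAs added to RNA from equal numbers of cells, and is called the per-cell scale. Fewer cells with a transcript and less of it in each cell cannot be told apart in such bulk samples. Libraries held 10615548 to 39566713 counts. Mettl3 was detected in every library, at 27.2 to 30.1 CPM as group means in KO cells against 33.9 to 35.9 CPM in WT cells, and was called lower in KO in both conditions (edgeR adjusted p = 0.0467 paused and 0.0134 in FBS). The summed level of 7 embryonic stem cell markers was 1861 to 2641 CPM over the KO libraries and 2927 to 4087 CPM over the WT libraries, so these markers were present throughout. Counts over 4 Y-linked genes were 593 to 3124 in KO libraries and 0 to 7 in WT libraries, so the lines differ in more than Mettl3, and the effect of the knockout and other differences between the lines cannot be told apart. One library, WT FBS replicate 1, stood apart from the other two WT FBS libraries at several of the genes below. For most results that rest on WT FBS, values without it follow those from all 12 libraries.

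Trp53 (chromosome 11, 69580359 to 69591873) had 166, 185 and 189 CPM in the KO paused libraries and 165, 181 and 190.5 CPM in the KO FBS libraries. It had 314, 355 and 392 CPM in the WT paused libraries and 249.8, 388 and 371 CPM in the WT FBS libraries. Every KO library lay below every WT library, and the 249.8 CPM of WT FBS replicate 1 was the lowest WT value. Mdm2 (chromosome 10, 117688875 to 117710758), the ligase that destroys p53, went the other way in paused cells, with 133, 117 and 115 CPM in KO paused libraries against 82.2, 84.1 and 81.8 CPM in WT paused libraries. In serum it had 133, 129 and 142 CPM in KO FBS libraries against 77.4, 129 and 130.0 CPM in WT FBS libraries, where replicate 1 sat near the paused level and the groups overlapped.

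Of the targets that act on proliferation and growth signalling, Ccng1 encodes cyclin G1, which works with a protein phosphatase and Mdm2 in feedback on p53. It had 189, 159.8 and 144 CPM in KO paused, 192, 177 and 192 CPM in KO FBS, 93.1, 81.0 and 78.1 CPM in WT paused, and 52.7, 161 and 155 CPM in WT FBS libraries. WT FBS replicate 1 lay below both its companions and all paused WT libraries. Phlda3, whose product competes with Akt for membrane lipids and so restrains it, showed the same low library: 32.2, 27.2 and 24.2 CPM in KO paused, 36.5, 38.1 and 41.1 CPM in KO FBS, 14.5, 15.1 and 12.3 CPM in WT paused, and 9.54, 33.8 and 32.1 CPM in WT FBS.

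Zmat3 encodes a zinc-finger protein that binds RNA. It had 198.5, 181 and 169 CPM in KO paused, 180.1, 182 and 198 CPM in KO FBS, 105, 93.9 and 90.7 CPM in WT paused, and 123, 169 and 184 CPM in WT FBS libraries. WT paused was the group that stood below the others, without overlap. Eda2r, a receptor of the tumour necrosis factor receptor family on the X chromosome, had 105, 88.8 and 83.4 CPM in KO paused, 68.9, 63.8 and 63.2 CPM in KO FBS, 44.1, 41.6 and 37.9 CPM in WT paused, and 46.9, 44.5 and 50.04 CPM in WT FBS libraries. Its 4 groups did not overlap, and KO paused was the highest. Trp53inp1, which promotes phosphorylation of p53 and takes part in autophagy, had 218, 164.5 and 162 CPM in KO paused, 230.1, 187 and 197 CPM in KO FBS, 106, 84.8 and 91.9 CPM in WT paused, and 119, 143 and 136 CPM in WT FBS libraries. Both KO groups lay above both WT groups.

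Ddit4l (chromosome 3, 137621612 to 137628333) and Sesn1 encode inhibitors of mTORC1, the complex that INK128 also blocks. Ddit4l had 25.3, 17.8 and 15.6 CPM in KO paused, 7.43, 6.50 and 7.44 CPM in KO FBS, 1.66, 2.51 and 2.35 CPM in WT paused, and 1.64, 5.36 and 5.34 CPM in WT FBS libraries. KO paused stood above all other groups and KO FBS above both WT groups, while WT FBS replicate 1 sat at the WT paused level. Sesn1 varied little, with 15.3 to 16.4 CPM in KO paused, 18.7 to 19.9 CPM in KO FBS, 16.4 to 23.8 CPM in WT paused and 16.9 to 24.8 CPM in WT FBS libraries. Rrm2b, the p53-inducible small subunit of ribonucleotide reductase, had 6.32, 7.58 and 6.83 CPM in KO paused, 13.4, 11.9 and 11.2 CPM in KO FBS, 10.3, 10.5 and 9.94 CPM in WT paused, and 7.99, 8.33 and 6.75 CPM in WT FBS libraries. Its order across groups was unlike that of any other target here: KO FBS was highest, WT paused second, and KO paused overlapped WT FBS. Rrm2b shares 734 exonic bases with an antisense gene that has no row of its own, and whether counting used strand is not given in the sources used here.

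**Figure D1:**
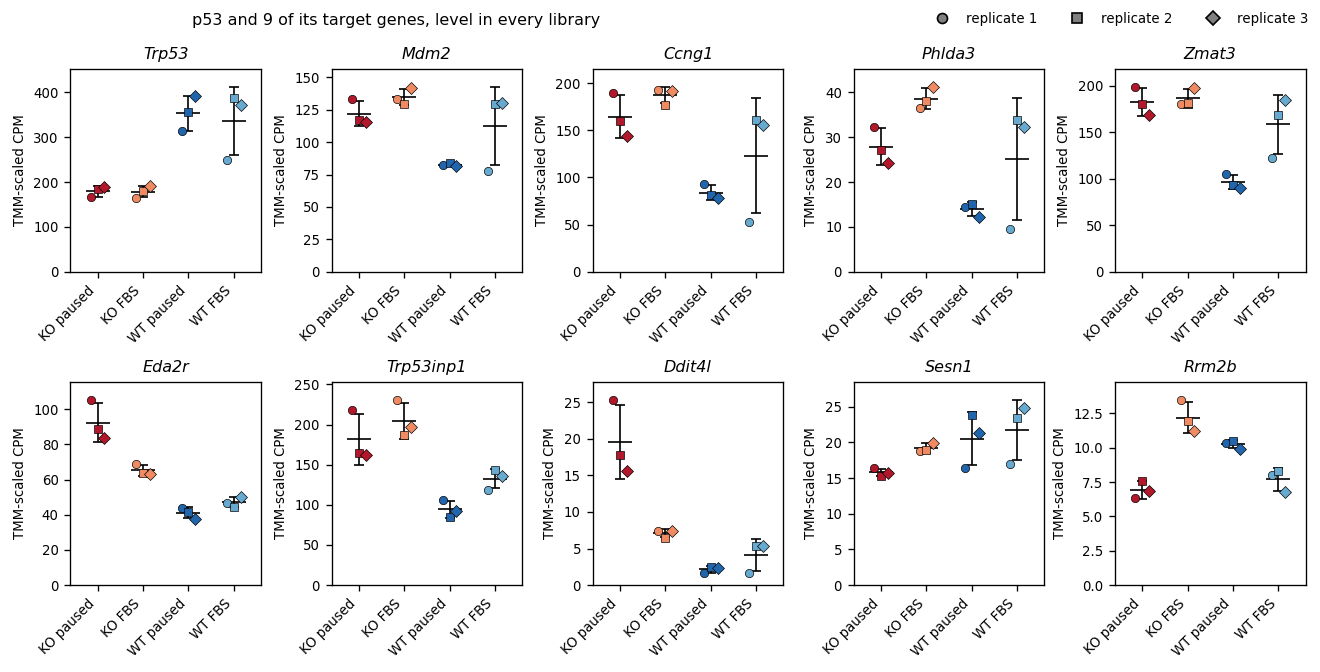
TMM-scaled CPM (linear axis from 0) of the 10 genes in each library; symbols are replicates, and black bars with whiskers are group means ± SD (n = 3). KO libraries lie below WT libraries for Trp53, and WT FBS replicate 1 (circle at the right) lies far below the other WT FBS libraries for Ccng1, Phlda3 and Ddit4l, at 52.7, 9.54 and 1.64 CPM.

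Per kilobase of exon, which allows levels of different genes to be compared, Trp53 was the most abundant of the 10 genes in WT cells, at mean levels of 87.5 CPM per kilobase paused and 83.1 in FBS. In KO cells it was at 44.5 paused and 44.2 in FBS, close to Ccng1 at 46.8 paused and 53.3 in FBS. Rrm2b was the least abundant in KO cells, at 0.756 paused and 1.34 in FBS, and Ddit4l the least abundant in WT paused cells, at 0.745.

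The first comparison asked how p53 and its targets differ between paused KO and paused WT cells. WT FBS libraries entered it only through steps shared by all libraries: the gene filter, the scaling factors and the estimate of spread. Trp53 was lower in KO while 7 of its 9 targets were higher. On the relative scale 9 of the 10 genes were called at an edgeR adjusted p under 0.05, 7 higher and 2 lower, where 51.8% of all tested genes were called (27.9% higher and 23.9% lower). The median log2 fold change of the 9 targets was 0.95, against 0.01 for all tested genes. Trp53 was lower at log2 −0.98 ± 0.15 (SE, edgeR adjusted p = 0.000143), which leaves 0.508 of the WT level. The largest difference was that of Ddit4l, at 3.15 ± 0.34 or 8.85-fold (edgeR adjusted p = 8.68e-06), followed by Eda2r at 1.17 ± 0.10 (1.76e-06).

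Phlda3 (1.00 ± 0.33), Ccng1 (0.97 ± 0.30), Trp53inp1 (0.95 ± 0.14), Zmat3 (0.92 ± 0.13) and Mdm2 (0.56 ± 0.16) were all higher in KO paused cells, with edgeR adjusted p from 9.2e-05 to 0.0214. Rrm2b was lower at −0.57 ± 0.13 (edgeR adjusted p = 0.00256), and Sesn1, at −0.38 ± 0.15, did not pass the test (0.0502). For all 10 genes the KO paused and WT paused libraries did not overlap, 7 above and 3 below, as was also the case for 36.2% of all tested genes above and 33.0% below. On the per-cell scale, where the median of all genes was 0.39, the same 7 targets were called higher (27.1% of all genes were) and 0 of the 10 lower (5.62% of all genes were). Trp53 per cell was at −0.61 ± 0.32 and was not called (edgeR adjusted p = 0.141), so its lower level in paused KO cells was called relative to the typical gene and not per cell. The calls of Ccng1 and Phlda3 were lost on leaving out KO paused replicate 1 or WT paused replicate 3, and that of Phlda3 also without WT paused replicate 1.

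The same genotypes in serum gave smaller differences. Trp53 was again lower, and 3 targets were higher. Of the 10 genes 4 were called in KO FBS against WT FBS, where 57.8% of all tested genes were called (28.4% higher and 29.4% lower), and the 9 targets had a median log2 fold change of 0.58 against −0.04 for all genes. Trp53 was at −0.91 ± 0.15 (edgeR adjusted p = 0.000201), or 0.531 of the WT level. Rrm2b (0.67 ± 0.12), Trp53inp1 (0.62 ± 0.13) and Eda2r (0.47 ± 0.10) were higher, with edgeR adjusted p from 0.000567 to 0.00164. Rrm2b therefore differed between the genotypes in opposite directions in the 2 conditions on the relative scale.

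Ddit4l (0.69 ± 0.30), Ccng1 (0.60 ± 0.29), Phlda3 (0.58 ± 0.31), Mdm2 (0.26 ± 0.15), Zmat3 (0.23 ± 0.13) and Sesn1 (−0.19 ± 0.15) did not pass, with edgeR adjusted p from 0.0629 to 0.283. These values rest in part on WT FBS replicate 1. Without it the median of the 9 targets was 0.27, and 8 genes were called where 68.6% of all tested genes were. Rrm2b (0.71), Trp53inp1 (0.57) and Eda2r (0.49) were again higher. Ccng1 was then at 0.27 (edgeR adjusted p = 0.0161), Phlda3 at 0.25 (0.0345), Ddit4l at 0.43 (0.035) and Sesn1 at −0.30 (0.0138), while Trp53 was at −1.06. Per cell only Trp53 was called, at −0.80 ± 0.32 (edgeR adjusted p = 0.0483), where 9.81% of all genes were called lower, and that call was lost under several alternatives, among them testing only these 2 groups. With WT FBS replicate 1 left out, Trp53 was at −0.99 per cell and again the only one of the 10 called lower, where 9.01% of all genes were.

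**Figure D2:**
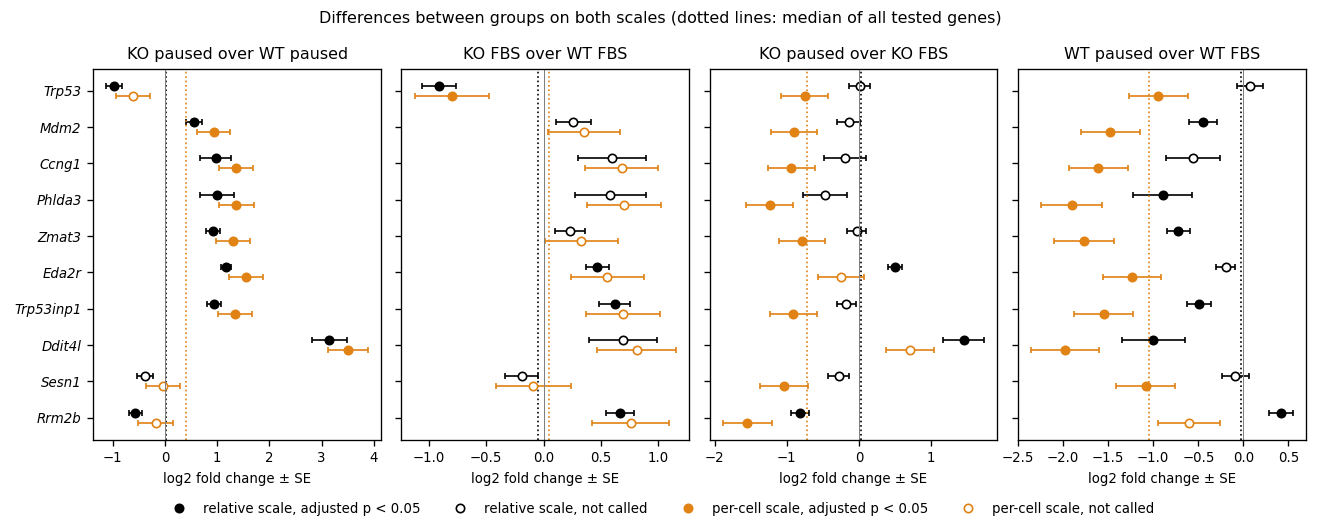
Log2 fold change ± SE of each gene in 4 comparisons on the relative scale (black) and the per-cell scale (orange); filled points passed an edgeR adjusted p of 0.05, dotted lines are the median of all tested genes, and the horizontal axes differ between panels. In paused cells Ddit4l stood at 3.15 and Trp53 at −0.98 on the relative scale, and for the pausing comparisons the per-cell values sit to the left of the relative ones.

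Pausing was then examined within each genotype. In WT cells 5 targets fell relative to the typical gene, 1 rose, and Trp53 itself was at 0.07 ± 0.15 (edgeR adjusted p = 0.722). That makes 6 of 10 called where 38.2% of all tested genes were (18.0% higher and 20.2% lower), and the 9 targets had a median of −0.50 against −0.02 for all genes. With replicate numbers as a block, a pairing that the labels do not give, 3 of the 10 were called. The share of all tested genes called in that fit is not given here. Zmat3 fell by 0.72 ± 0.13 on the log2 scale (edgeR adjusted p = 0.00141) and Trp53inp1 by 0.50 ± 0.14 (0.0129), both with WT paused libraries entirely below WT FBS libraries. Ddit4l (−0.999 ± 0.353), Phlda3 (−0.89 ± 0.33) and Mdm2 (−0.45 ± 0.16) were called at edgeR adjusted p of 0.0409, 0.0474 and 0.0402, but their groups overlapped. Each of these 3 calls was lost on leaving out any of at least 9 other single libraries. Rrm2b rose by 0.42 ± 0.13 (edgeR adjusted p = 0.0231), a call lost without any 1 of the 3 WT paused libraries or WT FBS replicate 3.

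The overlap came from WT FBS replicate 1. Without that library 7 of the 10 genes were called where 58.9% of all tested genes were, and the median of the 9 targets was −0.66. Phlda3 was then at −1.27 ± 0.11 (edgeR adjusted p = 6.7e-09), Ccng1 at −0.93 ± 0.09 (7.79e-08), Zmat3 at −0.89 ± 0.08 (9.98e-09) and Mdm2 at −0.66 ± 0.07 (1.02e-07). Trp53inp1 was at −0.58 and Rrm2b at 0.42, and Trp53 was at −0.11 ± 0.09 and was not called. Leaving out instead any other single library gave 1 to 4 called genes, the lowest count being without WT paused replicate 2. Over all such fits, that without WT FBS replicate 1 among them, all tested genes gave 4171 to 9219 calls. Per cell, 9 of the 10 genes fell in paused WT cells where 68.8% of all tested genes fell, with a median over all genes of −1.05. Trp53 fell per cell by 0.94 ± 0.33 on the log2 scale (edgeR adjusted p = 0.00717), close to that median, and the other 8 ranged from −1.98 (Ddit4l) to −1.09 (Sesn1). Rrm2b, the gene not called, was at −0.60 ± 0.34 per cell (edgeR adjusted p = 0.102), so its rise was relative to the typical gene only. The count was again 9 without WT FBS replicate 1, where 62.8% of all tested genes fell, and Trp53 was at −1.14.

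In KO cells pausing raised Ddit4l and Eda2r and lowered Rrm2b relative to the typical gene, and the other 7 genes did not pass the test. Of the 10 genes 3 were called where 42.7% of all tested genes were (23.3% higher and 19.4% lower), and the 9 targets had a median of −0.17 against 0.03 for all genes. Ddit4l rose by 1.45 ± 0.28 on the log2 scale, or 2.74-fold (edgeR adjusted p = 0.00133), and Eda2r by 0.50 ± 0.10 (0.00156). Rrm2b fell by 0.82 ± 0.12 (edgeR adjusted p = 0.000221). The other 7 lay between −0.47 ± 0.31 (Phlda3) and 0.01 ± 0.15 (Trp53) with edgeR adjusted p of 0.144 or more. WT FBS replicate 1 enters this comparison only through the shared gene filter, scaling factors and estimate of spread. Without it Phlda3 (−0.50), Sesn1 (−0.31), Ccng1 (−0.21) and Mdm2 (−0.17) were also called lower. That made 7 in all where 59.8% of all tested genes were called. Per cell 8 of the 10 fell where 45.7% of all tested genes did, at a median over all genes of −0.72. This count was 5 without KO paused replicate 1 or 2 or KO FBS replicate 3, and 3 without KO paused replicate 3 or KO FBS replicate 2. Over the fits that left out 1 library, all tested genes gave 4112 to 10459 calls per cell. Per cell Ddit4l was at 0.71 ± 0.34 (edgeR adjusted p = 0.0671) and Eda2r at −0.25 ± 0.32 (0.513).

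The difference between both pausing effects, KO minus WT, was tested directly as an interaction. It was positive for 3 targets and negative for 1, so 4 of 10 genes were called where 17.9% of all tested genes were (9.61% higher and 8.26% lower). Ddit4l had a difference of 2.45 ± 0.45 (edgeR adjusted p = 0.00326): it rose in paused KO cells and fell in paused WT cells. Eda2r differed by 0.70 ± 0.14 (0.00594) and Zmat3 by 0.69 ± 0.19 (0.0233). Rrm2b differed by −1.23 ± 0.18 (edgeR adjusted p = 0.000687), having fallen in KO and risen in WT cells relative to the typical gene. The call of Zmat3 was lost on leaving out any of 7 single libraries. On the per-cell scale Ddit4l alone was called, at 2.69 ± 0.51 (edgeR adjusted p = 2.47e-05), where 4.7% of all tested genes were, and 3 genes were called there without KO FBS replicate 2. Ddit4l was at 3.04 per cell without WT FBS replicate 1 and again the 1 gene called, where 5.18% of all genes were.

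Ccng1 (0.37 ± 0.41), Phlda3 (0.42 ± 0.45), Mdm2 (0.30 ± 0.22), Trp53inp1 (0.32 ± 0.19), Sesn1 (−0.19 ± 0.21) and Trp53 (−0.06 ± 0.21) did not pass this test on the relative scale. Without WT FBS replicate 1 the standard errors were smaller and 7 genes were called where 41.3% of all tested genes were. Phlda3 was then at 0.77 ± 0.15 (edgeR adjusted p = 0.000316), Ccng1 at 0.72 ± 0.13 (0.000168) and Mdm2 at 0.49 ± 0.10 (0.000367). Ddit4l was at 2.71 ± 0.27, Zmat3 at 0.83 ± 0.11, Eda2r at 0.69 ± 0.13 and Rrm2b at −1.26 ± 0.18 in that fit.

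**Figure D3:**
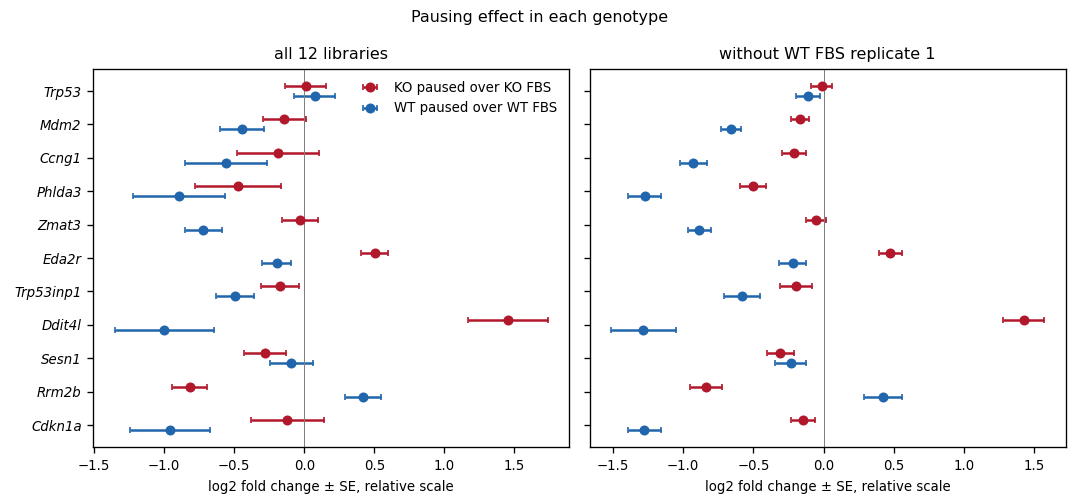
Log2 fold change ± SE of pausing in KO cells (red) and WT cells (blue) on the relative scale, for the 10 genes and Cdkn1a, with all 12 libraries (left) and without WT FBS replicate 1 (right). Ddit4l lies on opposite sides of 0 in KO (1.45) and WT (−0.999), Rrm2b likewise in the other order (−0.82 and 0.42), and the error bars of Ccng1 and Phlda3 shrink in the right panel.

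How the genes vary together was described by centring each gene's log2 CPM on its own mean over the 12 libraries and averaging the 9 targets. The mean was 0.50, 0.30 and 0.20 in the KO paused libraries and 0.39, 0.30 and 0.38 in the KO FBS libraries. It was −0.53, −0.48 and −0.57 in the WT paused libraries and −0.68, 0.10 and 0.09 in the WT FBS libraries. KO libraries were thus above WT libraries in both conditions, and WT FBS replicate 1 was the lowest of the 12 although it was not treated with the drug. That same library had the lowest WT level of Trp53, and at 7.80 CPM of Cdkn1a, against 20.6 and 23.5 CPM in the other WT FBS libraries. Its depth, 12027770 counts, was lower than the 39566713 and 30643409 of the other WT FBS libraries, and the part that depth or culture state had in its low target levels was not tested.

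**Figure D4:**
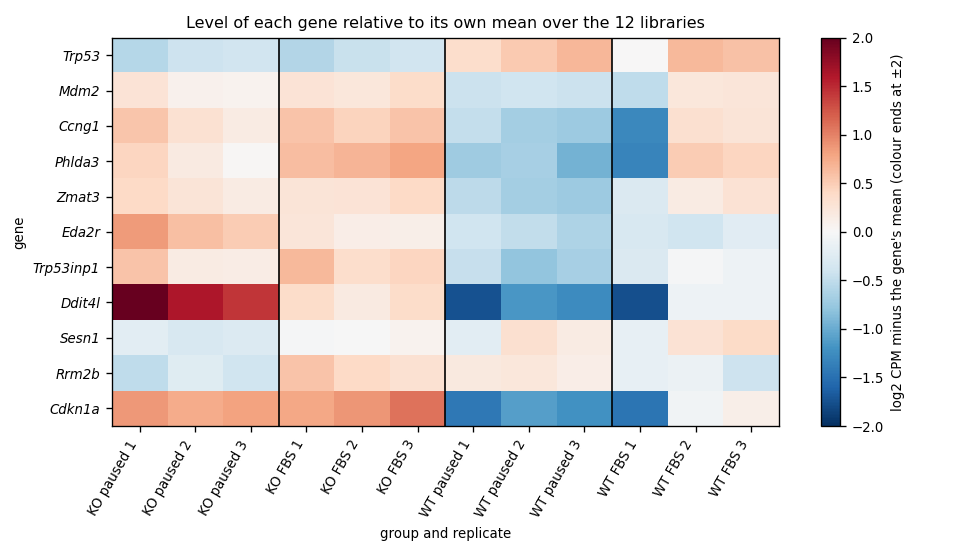
Log2 CPM of each gene in each of the 12 libraries minus the gene's mean over all libraries (colour scale ends at ±2). Trp53 is below its mean in all KO libraries while most targets are above theirs. In the WT FBS block replicate 1 is close to the lowest WT paused library for Ddit4l and Cdkn1a. For Ccng1 and Phlda3 it lies further below all WT paused libraries.

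Profiles over the 12 libraries were compared by the root mean square difference of centred log2 CPM. Only tested genes above a fixed mean level and without predicted or clone-based names were ranked. Closest to Trp53 were Nop58 (0.0682), Zfp281 (0.0942) and Znrd1 (0.102). Closest to Mdm2 were Rnf145 (0.075), Kti12 (0.0751) and Mrpl51 (0.0923). Closest to the mean of the 9 targets were Zfp280b (0.0711), Dr1 (0.0968) and Traf4 (0.0989). Zmat3 was the target most like Mdm2, at rank 142 with a difference of 0.157, and Ddit4l the least like it, at rank 9367 with 1.02. Over the 11 libraries without WT FBS replicate 1 the closest were Cherp (0.0646), Nop58 (0.066) and Smc1a (0.081) for Trp53, Kti12 (0.077), Rnf145 (0.077) and Psenen (0.087) for Mdm2, and Mex3c (0.0714), Zfp280b (0.0743) and Mmadhc (0.0751) for the mean of the targets. The points share libraries, so these are descriptions of profiles.

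A broader list of 46 gene symbols of other p53 targets was examined, of which 45 had a row and 44 were tested. In KO paused against WT paused cells 17 were higher and 7 lower, with a median log2 fold change of 0.27 against 0.01 for all genes. In KO FBS against WT FBS cells 14 were higher and 16 lower, with a median of −0.10. With pausing 9 rose and 12 fell in KO cells (median −0.09), and 4 rose and 19 fell in WT cells (median −0.38). The interaction was positive for 5 and negative for 0, with a median of 0.35 against 0.09 for all genes. Of all tested genes 27.9% were higher and 23.9% lower in the paused comparison of genotypes, and 28.4% and 29.4% in FBS. With pausing 23.3% rose and 19.4% fell in KO cells, and 18.0% rose and 20.2% fell in WT cells. The interaction was positive for 9.61% of all tested genes and negative for 8.26%. Without WT FBS replicate 1, 15 were higher and 19 lower in KO FBS against WT FBS cells, 6 rose and 30 fell on pausing in WT cells, and the interaction was positive for 21 and negative for 2. In either direction that makes 34, 36 and 23 of 44 called, where 68.6%, 58.9% and 41.3% of all tested genes were. Shares of all tested genes by direction without that library are not given here. The medians of the list were −0.14, −0.48 and 0.41.

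Among the targets that act in arrest and repair, Cdkn1a, which encodes the cell cycle inhibitor p21, had 38.0 ± 1.74 CPM in KO paused cells and 9.13 ± 1.05 CPM in WT paused cells (SD, n = 3 each), a log2 fold change of 2.05 ± 0.29 (edgeR adjusted p = 7.19e-05). In serum it had 41.3 ± 4.63 CPM in KO FBS and 17.3 ± 8.38 CPM in WT FBS cells, at 1.21 ± 0.26 (0.00178), or 0.93 ± 0.10 (4.17e-08) without WT FBS replicate 1. Gadd45a, a growth arrest and repair factor, was lower in KO in both conditions, at −0.70 ± 0.16 paused and −1.32 ± 0.16 in FBS. Polk, a translesion polymerase, was higher in KO in both, at 0.92 ± 0.13 and 0.91 ± 0.12. The FBS values of Gadd45a and Polk were −1.48 and 0.83 without WT FBS replicate 1.

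Of the 12 cell death targets 5 were higher and 1 lower in KO paused against WT paused cells, where 27.9% of all tested genes were higher and 23.9% lower. Bbc3, which encodes the death activator Puma, had 20.6 ± 2.69 CPM in KO paused and 8.97 ± 0.909 CPM in WT paused cells, at 1.20 ± 0.16 (edgeR adjusted p = 4.41e-05), and its pausing effects differed by 1.48 ± 0.22 (0.0008), or 1.54 ± 0.19 without WT FBS replicate 1. Apaf1, the core of the apoptosome, was higher at 0.86 ± 0.15 and the death receptor gene Tnfrsf10b at 0.56 ± 0.10, while Pmaip1, which encodes Noxa, was lower at −0.61 ± 0.15. Bax, a pore-forming death effector, was at 0.17 ± 0.15 and was not called (edgeR adjusted p = 0.374).

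Among metabolic and stress targets, the mTORC1 inhibitor Ddit4, the closest relative of Ddit4l, fell on pausing in KO cells by 1.00 ± 0.35 on the log2 scale (edgeR adjusted p = 0.037) and in WT cells by 2.19 ± 0.41 (0.0017). Its interaction was 1.18 ± 0.54 and did not pass (edgeR adjusted p = 0.155). With WT FBS replicate 1 left out, Ddit4 fell in WT cells by 2.59 ± 0.15 and the interaction was called, at 1.55 ± 0.19 (edgeR adjusted p = 2.71e-06). Gls2, a mitochondrial glutaminase, fell in both genotypes, by 0.85 ± 0.15 in KO and 1.19 ± 0.16 in WT (1.23 without WT FBS replicate 1). Cpt1c, a neuronal relative of carnitine palmitoyltransferase, was higher in KO than in WT cells, at 0.60 ± 0.12 paused and 0.47 ± 0.12 in FBS (0.37 without that library). Prkab1 was lower in KO, at −0.53 ± 0.11 paused and −0.87 ± 0.11 in FBS, and Gdf15 at −2.30 ± 0.56 in FBS. These FBS values are from all 12 libraries, and those without WT FBS replicate 1 are not given here. Of 10 tested metabolic and stress targets 3 were higher and 1 lower paused. In FBS 3 were higher and 2 lower (3 and 3 without that library). Of all tested genes 27.9% were higher and 23.9% lower paused, and 28.4% higher and 29.4% lower in FBS. Without that library 68.6% of all tested genes were called in FBS in either direction. In the remaining group Psrc1, a microtubule-associated gene, rose by 1.93 ± 0.09 in paused KO cells and was at −0.18 ± 0.09 in paused WT cells, and the interaction was 2.11 ± 0.12 (edgeR adjusted p = 2.94e-06), or 2.17 ± 0.09 without WT FBS replicate 1. Ppm1d, the phosphatase that switches p53 signalling off, was higher in KO than in WT cells, at 0.58 ± 0.08 paused and 0.77 ± 0.07 in FBS (0.81 without that library). Ak1, an adenylate kinase, was higher in KO at 1.55 ± 0.17 paused and 1.65 ± 0.16 in FBS (1.49 without it), and 9030617O03Rik at 2.67 ± 0.29 and 2.04 ± 0.19 (1.97 without it).

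Of 18 tested regulators of p53, 3 were higher and 8 lower in KO paused against WT paused cells, where 27.9% of all tested genes were higher and 23.9% lower. In KO FBS against WT FBS cells 5 were higher and 10 lower, where 28.4% of all tested genes were higher and 29.4% lower (6 and 10 without WT FBS replicate 1). Mdm4, the partner of Mdm2 that masks the activating domain of p53, had 221.6 ± 12.2 CPM in KO paused and 469 ± 41.0 CPM in WT paused cells, at −1.08 ± 0.09 (edgeR adjusted p = 1.26e-06). In serum it had 157 ± 8.24 CPM in KO FBS and 369.6 ± 24.6 CPM in WT FBS cells, at −1.23 ± 0.09 (3.74e-07), or −1.18 without WT FBS replicate 1. Hipk2, a kinase that phosphorylates p53, was higher in KO paused cells at 1.19 ± 0.10, and Trp53bp1, a DNA damage adaptor that binds p53, at 1.04 ± 0.10.

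Of 12 tested relatives of the 10 genes, 5 were higher and 4 lower in KO paused against WT paused cells, where 27.9% of all tested genes were higher and 23.9% lower. Zmat4, a zinc-finger relative of Zmat3, had 1.185 ± 0.238 CPM in KO paused and 53.5 ± 5.71 CPM in WT paused cells (SD, n = 3 each), at −5.46 ± 0.25 (edgeR adjusted p = 1.13e-08), while Zmat3 was higher in KO. In serum Zmat4 had 1.41 ± 0.265 CPM in KO FBS and 18.5 ± 5.86 CPM in WT FBS cells, at −3.67 ± 0.24 (edgeR adjusted p = 1.35e-07), or −3.39 without WT FBS replicate 1. Trp73, which encodes the p53 family member p73, was higher in KO where Trp53 was lower, at 1.49 ± 0.22 paused and 1.56 ± 0.19 in FBS (1.46 without that library). Sesn3, a relative of Sesn1, was higher in KO paused cells at 1.09 ± 0.19. Rrm2, the cell cycle counterpart of Rrm2b, fell on pausing in WT cells by 1.02 ± 0.14 (1.17 without that library). On the same relative scale Rrm2b rose. Relatives share sequence, and how the counting treated reads that match several genes is not given in the sources used here.

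Because whole chromosome regions differed between the lines, each gene was set beside its 49 nearest tested neighbours. The neighbours of Trp53 on chromosome 11 had a median of −0.26 in KO paused against WT paused cells and −0.34 in FBS, and Trp53 was lower than 46 of the 49 paused and 43 in FBS. The FBS values were −0.38 and 46 without WT FBS replicate 1. Neighbours of Ddit4l on chromosome 3 had medians in the direction of the gene in paused cells, 0.50 in KO paused against WT paused cells, 0.50 for pausing in KO and 0.88 for the interaction, but stood at −0.68 in KO FBS against WT FBS cells. Ddit4l itself was higher than 48 of its 49 neighbours in paused cells and 47 for the interaction. Its neighbours stood at 0.97 for the interaction and −0.72 in FBS without WT FBS replicate 1. The neighbours of Phlda3 on chromosome 1 had medians of −0.42 paused and −0.39 in FBS, opposite to the gene, and those of Mdm4 on the same chromosome −0.61 and −0.46. Without that library the FBS medians were −0.17 beside Phlda3 and −0.33 beside Mdm4. For the other 7 genes the neighbour medians lay between −0.16 and 0.17 in these 2 comparisons, and between −0.11 and 0.14 in FBS without that library. The part of regional differences in the values of Trp53 and Ddit4l was not tested.

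**Figure D5:**
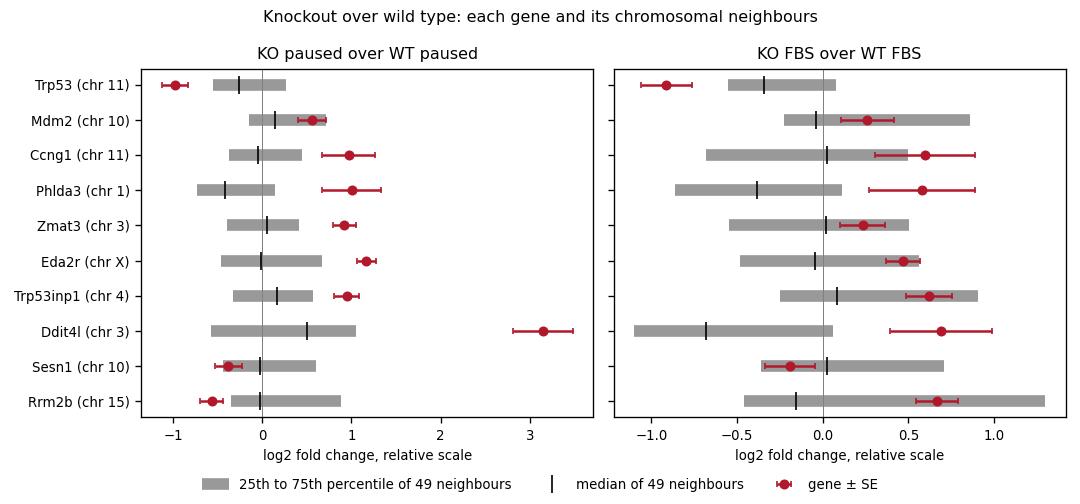
Log2 fold change of each gene ± SE (red) beside the median (black tick) and the 25th to 75th percentile (grey bar) of its 49 nearest tested neighbours, for KO over WT in paused cells (left) and in serum (right), on axes of different range. In paused cells Trp53 lies below its bar at −0.98 and Ddit4l far above at 3.15.

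Summed levels of marker genes of other cell types differed between some of the groups. The summed level of 6 trophoblast markers was 20.4 to 23.0 CPM in KO paused, 128 to 187.5 CPM in KO FBS, 7.63 to 8.76 CPM in WT paused and 11.9 to 17.9 CPM in WT FBS libraries. That of 6 extraembryonic endoderm markers was 177 to 184 CPM in KO paused, 127 to 145 CPM in KO FBS, 32.1 to 46.3 CPM in WT paused and 85.6 to 110.3 CPM in WT FBS libraries. Both sums were higher in KO than in WT libraries in both conditions. Of 5 tested trophoblast markers 3 were called higher in KO paused against WT paused cells and 4 in KO FBS against WT FBS cells. Of 6 endoderm markers 2 were higher and 2 lower paused, and 1 higher and 3 lower in FBS (2 and 3 without WT FBS replicate 1). Of all tested genes 27.9% were higher and 23.9% lower paused, and 28.4% higher and 29.4% lower in FBS. The 7 fibroblast markers summed to 4.93 to 6.92 CPM in KO paused, 15.5 to 20.1 CPM in KO FBS, 0.745 to 1.655 CPM in WT paused and 4.43 to 7.52 CPM in WT FBS libraries. Lum was at 0 in both WT groups and Postn at 0 in WT paused. The 5 neural markers summed to 183.5 to 209 CPM in KO paused, 99.9 to 124 CPM in KO FBS, 166 to 222 CPM in WT paused and 60.6 to 129 CPM in WT FBS libraries, with Neurog2 at 0 in WT paused. Of 4 tested fibroblast markers 3 were higher and 0 lower in KO than in WT cells in each condition. Of 4 tested neural markers 3 were higher and 1 lower paused, and 2 higher and 1 lower in FBS. The FBS counts of both lists were the same without WT FBS replicate 1. Of the 7 embryonic stem cell markers 0 were higher and 5 lower in KO than in WT cells paused. In FBS 0 were higher and 4 lower (0 and 6 without that library). The part of other cell types in the levels of p53 and its targets was not tested.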

How the data were processed

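RNA-seq of 12 samples was analysed. The authors deposited raw counts per gene symbol with 92 ERCC rows, used in the main tests, and log2 values normalised to cell number, used as an alternative on the per-cell scale; per the submitters' processing notes, edgeR 3.32.1, Subread 1.5.0 with featureCounts, Trim Galore 0.4.0 and the build mm10 were involved, without stated roles. Aligner, annotation and strandedness: not given in the sources used here. Deposited counts entered edgeR 4.0.16 (R 4.3.3; robust quasi-likelihood, 4 group means, all 12 libraries, default filter with minimum count 10 and total 15), with Benjamini-Hochberg adjustment over 15281 genes at 0.05. Library size was the gene total with TMM over gene rows (relative scale) or the ERCC total with TMM over ERCC rows (per-cell scale, where an error in 1 library moves all its genes together). RNA was spiked after extraction. Replicate numbers from the labels were not used as a block in the main tests. Positions and exon lengths are from GENCODE for GRCm38. Alternatives were RLE factors, DESeq2 1.42.0, limma 3.58.1, no filter, a replicate block, the compared groups alone, TMM without chromosomes 1, 3, 8, 11 and Y, ERCC totals without TMM and each library left out. Other genes were named by fixed rule, as Cdkn1a, Mdm4, Bax, Bbc3, relatives of the 10 genes and up to 4 leading calls by p in each list and comparison, not all of which are printed. Members and lists were chosen with earlier results of these data known. The fits were tested on simulated counts.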

Additional observations from a re-analysis of the deposited data

Results flagged for a closer look

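The pausing effect differed between KO and WT cells, by the interaction test across all genes (edgeR adjusted p under 0.05), for 4 of the 10 genes on the relative scale and for 1 of them on the per-cell scale as well. Of all tested genes 17.9% were called on the relative scale and 4.7% on the per-cell scale. For Ddit4l the difference, KO minus WT, was 2.45 on the relative scale (2.71 without WT FBS replicate 1) and 2.69 on the per-cell scale (3.04 without it). For Eda2r it was 0.70 (0.69 without WT FBS replicate 1) and for Zmat3 0.69 (0.83 without that library). For Rrm2b it was −1.23 (−1.26 without it). Relative to the typical gene Rrm2b fell in paused KO cells and rose in paused WT cells. Per cell it was at −0.60 ± 0.34 for pausing in WT cells, which was not called (edgeR adjusted p = 0.102). The per-cell interaction of Rrm2b, −0.94 ± 0.48, was not called either (edgeR adjusted p = 0.318).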

How the results depend on the processing

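The labels do not say what a replicate number shares. Same-numbered libraries of different groups had correlations of −0.022 to 0.27 in their deviations from the group means. Because only 10 of 18 such pairs exceeded 0.1, where all were required, the numbers were not taken as pairs, although in 28 of 36 combinations the same number correlated best, a hint of pairing from the data and not the design. With a replicate block 3 of the 10 genes were called for pausing in WT cells on the relative scale (6 without it). Per cell the block gave 6 for KO FBS against WT FBS (1 without it) and 3 for the interaction (1 without it). For that interaction all genes gave 1970 calls against 718. Counts over all genes with the block are not given here for the other comparisons. Testing only the groups compared gave, on the relative scale, 2 genes for pausing in WT cells, 9 of the other p53 targets, 2 of the regulators and 2769 of all genes, and 7 of the 10 genes for pausing in KO cells. Per cell it gave 0 of the 10 genes and 2916 of all genes for KO FBS against WT FBS. That count was also 0 with ERCC totals without TMM and with no filter, and 4 with limma on the deposited log2 values, which gave 5 genes and 4842 of all genes for pausing in KO cells per cell. The causes were not tested.

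Of the log2 fold changes recomputed for the 10 genes and for Cdkn1a, Mdm4, Bax and Bbc3, those that changed sign were ones that passed no test. Trp53 for pausing in KO cells was at −0.0325 with RLE factors, −0.0339 with DESeq2 and −0.0058 with only the groups compared, and Bax in the interaction at −0.0059 with RLE factors and −0.0129 with DESeq2. Sesn1 in KO paused against WT paused cells per cell was at 0.1035 with limma and 0.0371 with the replicate block.

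Leaving out 1 library at a time, the 10 genes gave 1 to 7 calls for pausing in WT cells, 3 to 7 for pausing in KO cells, 4 to 8 for KO FBS against WT FBS and 3 to 7 for the interaction on the relative scale. Over all tested genes, pausing in KO cells gave 5071 to 9349 calls and KO FBS against WT FBS 7725 to 10723. All genes gave 4171 to 9219 calls for pausing in WT cells and 1819 to 6463 for the interaction. The other p53 targets gave 16 to 36 and 3 to 23 in those comparisons, and the regulators 2 to 10 for the interaction. Per cell the 10 genes gave 3 to 8 calls for pausing in KO cells (all genes 4112 to 10459), 0 to 6 for KO FBS against WT FBS (all genes 3300 to 5294) and 1 to 3 for the interaction (all genes 397 to 1718). Values that changed sign ranged, on the relative scale, from −0.1104 to 0.1871 (Trp53, pausing in WT), −0.235 to 0.0393 (Sesn1, pausing in WT), −0.045 to 0.0646 (Trp53, pausing in KO), −0.0948 to 0.0221 (Zmat3, pausing in KO), −0.0147 to 0.2682 (Bax, KO FBS against WT FBS), −0.1776 to 0.0959 (Trp53, interaction) and −0.0989 to 0.194 (Bax, interaction). Per cell they ranged from −0.4408 to 0.0178 (Eda2r, pausing in KO), −0.3525 to 0.1395 (Sesn1, KO FBS against WT FBS), −0.3079 to 0.2417 (Sesn1, KO paused against WT paused), −0.0615 to 0.4802 (Trp53, interaction) and −0.2186 to 0.3131 (Sesn1, interaction). In KO paused against WT paused cells the 10 genes gave 7 to 10 calls on the relative scale and 6 to 7 per cell. All tested genes gave 6720 to 10203 and 3608 to 6293 there.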
